A study of Mus musculus with 9 samples.

Results

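Collagen chains are the genes that encode the α chains of the collagen family, and they were followed here across whole ovaries of WT mice and of mice without ERβ. The members are the genes whose symbol has the form Col, a number, a and a number, and 44 of the 46078 genes of the count table matched, each with 1 row. The rule used the name only and no measured value. Of these 44 chains, 40 passed the filter on low counts and were tested, and 32 had a mean above 1 FPKM (fragments scaled to the length of the gene and to all mapped fragments of the library) in at least 1 genotype. Col2a1, Col9a1, Col10a1 and Col19a1 did not pass, with at most 7 fragments counted in any ovary.

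Ovaries of 5 WT and 4 ERβKO mice of the C57BL/6J strain gave 1 RNA-seq library each, with 12353740 to 16519975 fragments counted on genes per WT library and 13088728 to 18717510 per ERβKO library. ERβKO mice carried a germline deletion of exon 3 of Esr2, the gene for estrogen receptor β, made by crossing floxed mice with a Rosa26-Cre deleter line and then breeding heterozygotes, and WT mice expressed the receptor. All cells of the knockout mice lack the exon, so the comparison is not limited to the cells that use the receptor. Mice were between 4 and 20 weeks old, with no age given for a single ovary, and their estrous stage was not fixed. The labels call every ovary untreated, although a protocol text attached to all samples describes a high-fat or control diet and injections without assigning them to single ovaries. Esr2 itself, counted over the whole gene with the remaining exons, lay at 12.4 to 23.9 FPKM in WT and 10.5 to 23.7 FPKM in the knockouts and did not separate the genotypes. WT replicate 2 lay between the other WT and the ERβKO ovaries on the first principal component of all tested genes (9.43, against -43.8 to -15.6 for the other WT and 19.4 to 35.3 for the ERβKO ovaries), and WT replicates 4 and 5 carry library numbers above 200 while all other libraries are numbered below it. The labels do not say that this number marks a batch.

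Collagens are secreted proteins built from 3 α chains wound into a triple helix. Fibrillar collagens assemble into the tensile fibres of the stroma, with type I and type III as the bulk of most fibres and type V and type XI as chains that regulate how fibrils start and how thick they grow. Type IV collagens form the sheet-like network of basement membranes, which in the ovary surround each follicle, the vessels and the surface epithelium, and type VI collagen forms beaded filaments between them. The smaller classes decorate fibrils (the FACIT collagens), anchor basement membranes, or span the cell membrane.

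In whole ovaries the family was dominated by few chains. The summed level of all 44 chains was 635, 794, 828, 553 and 497 FPKM in the WT ovaries 1 to 5 and 632, 539, 624 and 616 FPKM in the knockout ovaries 1 to 4. The ERβKO sums all lay inside the WT range. The 11 fibrillar chains took 42.8% of the collagen FPKM on average over the 9 ovaries, the 6 type VI chains 29.0% and the 6 type IV chains 17.9%, so that these classes together held most of the signal. Within the fibrillar class the sums ran from 189.6 to 425 FPKM in WT and from 216 to 277 FPKM in the knockouts, again with the knockout values inside the WT range. The type IV sums were 108.6 to 146 FPKM in WT and 89.4 to 117 FPKM in the knockouts, and the 3 lowest of them all belonged to knockout ovaries. FPKM are relative to all mapped fragments of a library, and in bulk tissue fewer cells of a type cannot be told apart from less RNA per cell.

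**Figure D1:**
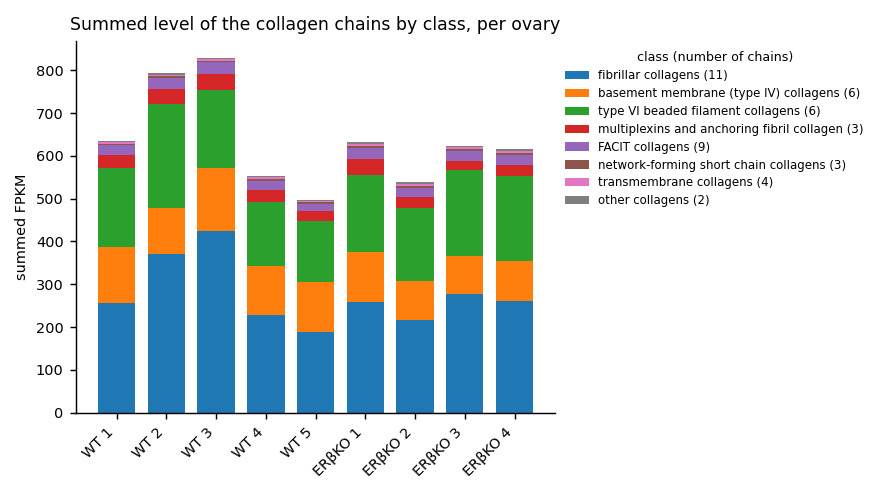
Stacked bars show the summed FPKM of the collagen chains of each structural class in every ovary (x axis: the 5 WT and 4 ERβKO ovaries, y axis: summed FPKM). WT replicates 2 and 3 reach 794 and 828 FPKM, while the ERβKO ovaries lie between 539 and 632 FPKM.

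The WT ovaries differed widely among themselves. Of the 32 chains with a mean above 1 FPKM, 11 had their highest value in WT replicate 2, among them Col1a1, Col1a2, Col5a1 and 4 of the 6 type VI chains, and 6 in WT replicate 3, among them Col3a1, Col5a2, Col4a1 and Col4a2. In contrast, 13 of the 32 had their lowest value in WT replicate 5, which was the top ovary for 0 of them. These counts were not taken over all genes. On the first principal component of all tested genes, WT replicates 2 and 5 were also the ends of the WT range, at 9.43 and -43.8. The median coefficient of variation over these chains was 23.8% among WT and 14.8% among ERβKO ovaries, beside 12.8% and 10.7% over all 14178 tested genes above that level. Both medians of the collagens lay above those of all genes. The WT value was the larger one for 18 of the 32 chains, beside 8745 of the 14178 genes.

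**Figure D2:**
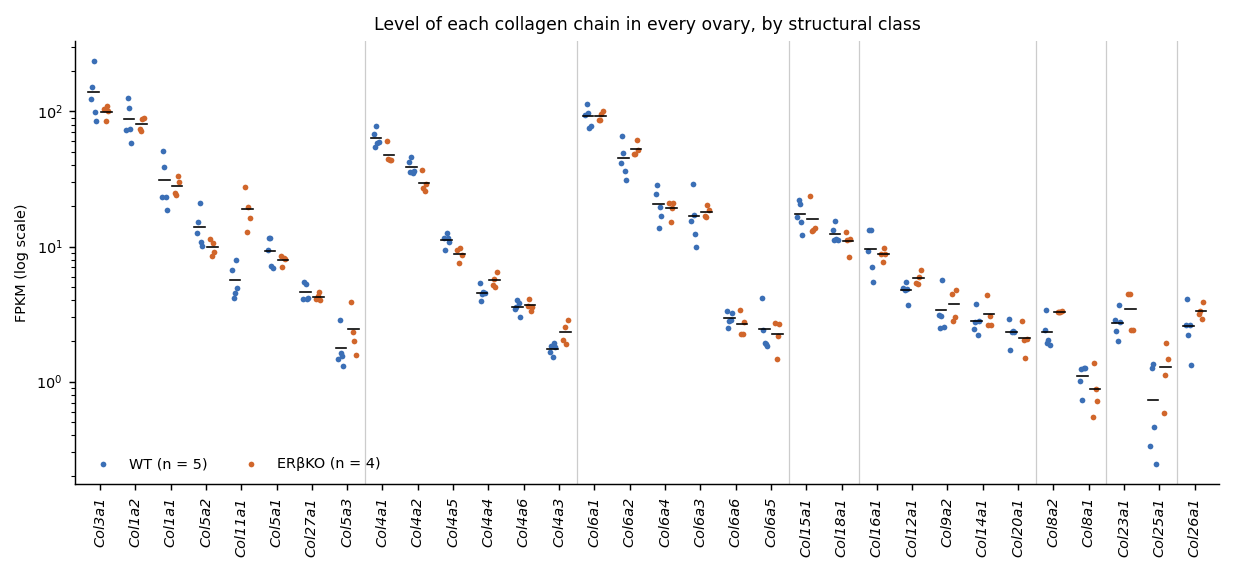
Each point is the FPKM of a collagen chain in 1 ovary (log scale), for the 32 chains with a mean above 1 FPKM in a genotype, grouped by structural class from left (fibrillar, type IV, type VI, multiplexins, FACIT, short chain, transmembrane, other), with WT in blue and ERβKO in orange and a bar at each mean. Col3a1, Col1a2 and Col6a1 are the 3 most abundant chains, and Col11a1 is the chain whose points separate by genotype.

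Differential expression was tested with edgeR's quasi-likelihood test over 16722 genes. A gene was a DEG if its adjusted p (Benjamini-Hochberg) was under 0.05, its log2 fold change (ERβKO over WT) was beyond 0.4 in either direction and its mean was above 1 FPKM in a genotype. Among all tested genes 1.72% met these criteria, 0.915% in the higher and 0.801% in the lower direction. Among the 40 tested collagen chains 1 did, Col11a1, which was higher in ERβKO ovaries, and no chain was called lower. With DESeq2, which the study used, 4.78% of all genes were DEGs (2.22% higher and 2.56% lower), and 3 collagen chains were, Col11a1 as higher and Col4a1 and Col4a2 as lower. At an unadjusted p under 0.05 in edgeR stood 10 of the 40 chains, beside 19.8% of all genes. Of the 40 log2 fold changes 16 were positive and 24 negative, and their median was -0.13, against -0.00089 over all tested genes.

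**Figure D3:**
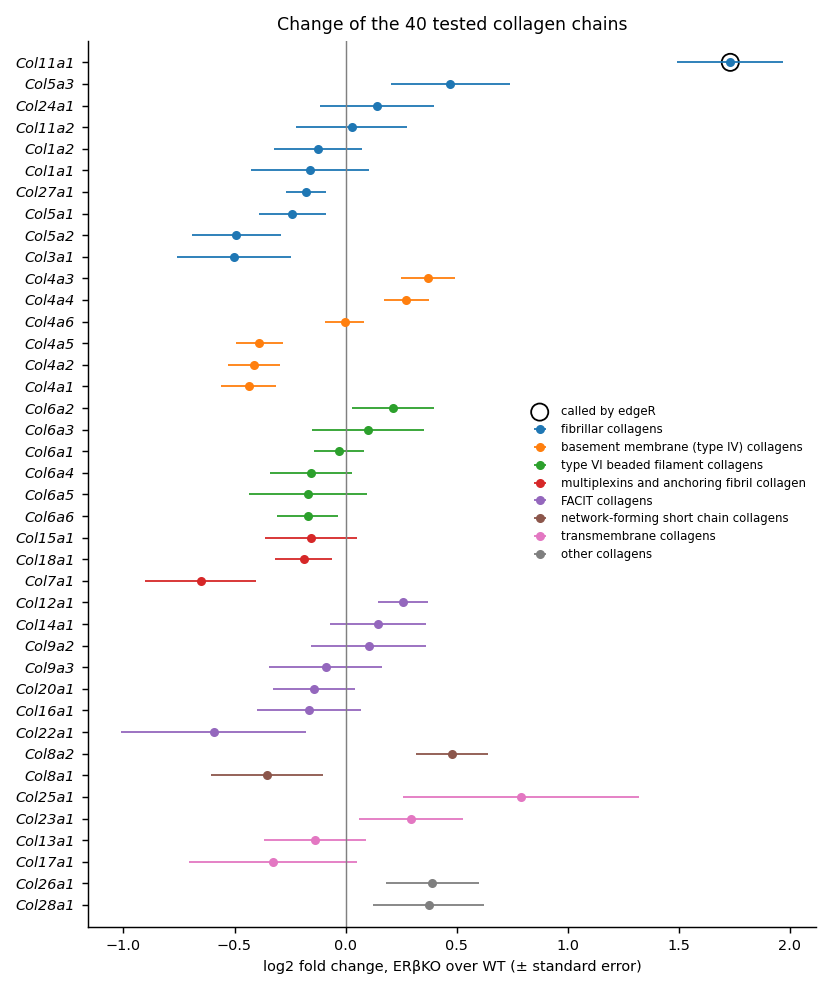
Points give the log2 fold change (ERβKO over WT) from edgeR of the 40 tested collagen chains with its standard error, coloured by structural class, with a ring around the chain called by edgeR. Col11a1 stands at 1.73, all other chains between -0.65 and 0.79, and the type IV chains divide into Col4a3 and Col4a4 above 0 and Col4a1, Col4a2 and Col4a5 below 0.

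Col11a1 (ENSMUSG00000027966, chr3:114030540-114220718, + strand, GRCm38) encodes the α1 chain of type XI collagen, a minor fibrillar collagen best known from cartilage, where it sits inside type II fibrils and limits their thickness. It was measured at 6.65, 4.13, 4.52, 7.91 and 4.90 FPKM in the WT ovaries 1 to 5 and 27.5, 12.8, 19.6 and 16.4 FPKM in the knockout ovaries 1 to 4. Every knockout ovary lay above every WT ovary, the lowest knockout value being that of replicate 2 and the highest that of replicate 1. The mean rose from 5.62 ± 1.60 FPKM (SD, n = 5) to 19.1 ± 6.24 FPKM (SD, n = 4), a 3.32-fold difference in the fit (log2 fold change 1.73, standard error (SE) 0.24, edgeR's adjusted p = 0.00973). The adjusted p was under 0.05 in all 18 alternative fits, from 4.82e-10 with DESeq2 to 0.0376 with the libraries numbered below 200, where the log2 fold change was 1.90. Leaving out 1 ovary at a time moved the log2 fold change between 1.52 and 1.89. Among the 40 tested chains Col11a1 was also the only one whose genotypes did not overlap in FPKM in either direction, beside 4.29% of all tested genes with every ERβKO above every WT ovary and 3.31% with every ERβKO below every WT ovary. As a share of all fibrillar FPKM, Col11a1 went from 1.06% to 3.46% in the WT ovaries to 5.93% to 10.6% in the ERβKO ovaries. No annotated gene overlaps the exons of Col11a1.

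None of the partners of this chain was called. Type XI collagen is usually assembled from Col11a1, Col11a2 and a chain made from Col2a1, and in other tissues Col11a1 can join Col5a2 in mixed type V and XI fibrils. Col11a2 lay between 0.140 and 0.347 FPKM in all 9 ovaries, with a log2 fold change of 0.03 (SE 0.25, edgeR's adjusted p = 0.964). Col2a1 was listed at 0 in 8 ovaries and at 0.0106 FPKM in WT replicate 5. Col5a2 was lower in the mean, as given with the fibrillar chains, at a log2 fold change of -0.49. In a description made after these values were seen, the ratio of Col11a1 to Col5a1 FPKM ran from 0.357 to 1.10 in WT and from 1.81 to 3.24 in ERβKO ovaries, so that Col11a1 passed from below or near the level of Col5a1 to above it.

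Markers of other cell types moved in the same comparison, and their part in the level of Col11a1 was not tested. Of the 10 chondrocyte markers listed, 8 were matched, 5 were tested and 0 were DEGs. Their log2 fold changes were positive for 3 and negative for 2, Comp (-1.26) and Hapln1 (-0.56). The summed level of the list was 3.96 to 10.2 FPKM in WT and 7.32 to 10.8 FPKM in the knockouts. Matn1, a defining marker, was at 0 FPKM in all ovaries, and Acan, the cartilage proteoglycan aggrecan, was at 0.209 to 0.531 FPKM in WT and 0.805 to 1.42 FPKM in the knockouts. The log2 fold change of Acan was 1.34 (edgeR's adjusted p = 0.0460), past the limits on p and size, and Acan was not a DEG because its knockout mean of 0.999 FPKM was not above 1. The 10 granulosa markers had a mean log2 CPM of 6.07 to 6.54 in WT and 6.66 to 7.06 in ERβKO ovaries, with no overlap and 2 DEGs, both higher, and summed to 585 to 733 FPKM and 779 to 1040.4 FPKM. For the 10 Schwann cell markers, of which 6 were tested with 1 DEG in each direction, the sums were 53.5 to 77.9 FPKM and 86.0 to 130.4 FPKM, while the defining marker Sox10 stayed at or below 0.085 FPKM. The adipocyte markers were highest in ERβKO replicate 1, the ovary with the highest Col11a1, at a mean log2 CPM of 7.10. All other ovaries lay at 4.50 to 6.15. The lowest value, 4.50, was that of ERβKO replicate 4, where Col11a1 was at 16.4 FPKM, above every WT ovary. Of the 10 log2 fold changes 9 were positive, with 0 DEGs.

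The 300 bases around the Col11a1 start (chr3:114030290-114030589, + strand, GRCm38.p6, RefSeq) are shown because this is the chain that was called. Motifs searched on both strands are in capitals, here 1 CCAAT box (CCAAT, read on the opposite strand, at -79) and 2 GC boxes (GGGCGG, at -110 and -19), with positions counted from 0 at the start site.
Col11a1: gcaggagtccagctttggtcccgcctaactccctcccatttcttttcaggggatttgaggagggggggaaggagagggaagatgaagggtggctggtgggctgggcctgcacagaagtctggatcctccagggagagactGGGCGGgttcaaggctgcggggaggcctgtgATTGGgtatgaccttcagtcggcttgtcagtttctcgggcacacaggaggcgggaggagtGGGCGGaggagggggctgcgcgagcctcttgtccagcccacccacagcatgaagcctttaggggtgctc

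Across the family, 38 such windows were held for 35 of the 44 chains, since some genes have more than 1 start. An estrogen response element, GGTCA and TGACC with 3 bases between them, was in 0 of the 38 windows and in 0.0700% of all 32851 windows of mouse genes, so these letters are rare in any such window. An NR5A element (CAAGGTCA, which contains a single estrogen receptor half-site) was in the windows of Col7a1 and Col9a1 (5.26%, beside 1.56% of all windows). GC boxes were in 60.5% of the collagen windows and 35.7% of all windows, CCAAT boxes in 34.2% and 37.4%, and TATA boxes (TATAAA) in 13.2% and 13.6%. The collagen windows had a median GC content of 59.8%, against 52.7% over all windows. These matches describe the letters and not a binding site.

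The 6 type IV chains form the collagen network of basement membranes and lie in 3 pairs of genes that face away from a common region. The start sites of Col4a1 and Col4a2 on chromosome 8 are 21 bases apart and their first bases overlap, those of Col4a3 and Col4a4 on chromosome 1 are 72 bases apart, and those of Col4a5 and Col4a6 on chromosome X are 1309 bases apart. Col4a1 and Col4a2 make up the widespread α1α1α2 network, while the other chains form networks restricted to certain basement membranes. The windows of Col4a1 (chr8:11312777-11313076, - strand) and Col4a2 (chr8:11312555-11312854, + strand) are shown because the pair shares a promoter and moved in the same direction. The capitals mark 1 CCAAT box in each (at -145 for Col4a1, read on the opposite strand, and at -32 for Col4a2), 1 GC box for Col4a1 (at 9) and 3 for Col4a2 (at -192, -48 and 7). The GC box nearest to both starts is the same 6 bases, chr8:11312812-11312817, read from either strand.
Col4a1: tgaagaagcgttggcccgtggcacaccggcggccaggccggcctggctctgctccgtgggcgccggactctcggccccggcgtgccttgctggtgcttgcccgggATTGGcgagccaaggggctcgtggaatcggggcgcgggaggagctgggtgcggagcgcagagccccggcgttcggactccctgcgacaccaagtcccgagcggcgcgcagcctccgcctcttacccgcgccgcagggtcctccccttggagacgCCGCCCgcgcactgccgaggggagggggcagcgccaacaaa
Col4a2: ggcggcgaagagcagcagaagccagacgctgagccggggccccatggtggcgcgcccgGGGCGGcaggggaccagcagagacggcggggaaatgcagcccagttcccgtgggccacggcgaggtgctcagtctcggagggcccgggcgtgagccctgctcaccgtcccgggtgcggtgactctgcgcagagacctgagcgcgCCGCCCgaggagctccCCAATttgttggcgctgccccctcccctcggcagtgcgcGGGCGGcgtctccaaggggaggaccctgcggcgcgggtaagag

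Col4a1 (ENSMUSG00000031502, chr8:11198423-11312826, - strand) stood at 67.6, 54.4, 77.9, 58.3 and 59.7 FPKM in the WT ovaries 1 to 5 and at 60.0, 44.4, 43.6 and 43.9 FPKM in the knockout ovaries 1 to 4. In Col4a2 (ENSMUSG00000031503, chr8:11312805-11449287, + strand) the values were 42.2, 35.5, 45.7, 34.7 and 36.0 FPKM in WT and 36.9, 27.1, 25.8 and 29.2 FPKM in the knockouts. For both chains 3 knockout ovaries were below all WT ovaries, and ERβKO replicate 1 was within the WT range. Col4a1 averaged 63.6 ± 9.36 FPKM among WT (SD, n = 5) and 48.0 ± 8.04 FPKM in the knockouts (SD, n = 4), at a log2 fold change of -0.44 (SE 0.12, edgeR's adjusted p = 0.0953, DESeq2's adjusted p = 0.0178). Col4a2 averaged 38.8 ± 4.86 and 29.8 ± 4.95 FPKM, with a log2 fold change of -0.41 (SE 0.12, edgeR's adjusted p = 0.0958, DESeq2's adjusted p = 0.0200). The call therefore depended on the tool. It also depended on single ovaries in edgeR: without ERβKO replicate 1 the log2 fold changes were -0.55 and -0.52 (adjusted p = 0.0475 and 0.0411), and without WT replicate 2 that of Col4a1 was -0.49 (adjusted p = 0.0388). Without WT replicate 2 the DEGs over all tested genes rose from 287 to 912, so calls were gained widely in that fit. With the libraries numbered below 200 the log2 fold changes of Col4a1 and Col4a2 were -0.48 and -0.48, at edgeR's adjusted p = 0.209 and 0.185.

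Col4a5 (ENSMUSG00000031274, chrX:141475385-141689234, + strand), whose loss in humans causes a hereditary kidney basement membrane disease, was at 11.7, 9.41, 12.6, 11.7 and 10.8 FPKM in WT and at 9.48, 7.58, 9.71 and 8.64 FPKM in the knockout ovaries 1 to 4. The genotypes overlapped only through WT replicate 2, which lay below ERβKO replicates 1 and 3. Its log2 fold change was -0.39 (SE 0.11, edgeR's adjusted p = 0.0845, DESeq2's adjusted p = 0.0183), under the minimum size for a DEG in either tool. Without WT replicate 2, where calls rose over all genes, the edgeR fit gave -0.45 at an adjusted p of 0.0221. Its neighbour Col4a6 was not called, at 3.00 to 4.03 FPKM in WT and 3.34 to 4.11 FPKM in the knockouts and a log2 fold change of -0.0037 (SE 0.087, edgeR's adjusted p = 0.985).

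Col4a3 and Col4a4, the chains that join Col4a5 in the α3α4α5 network, had fold changes of the opposite sign. Col4a3 ranged from 1.53 to 1.92 FPKM in WT and from 1.89 to 2.84 FPKM in the knockouts, with a log2 fold change of 0.37 (SE 0.12, edgeR's adjusted p = 0.133). Col4a4 ranged from 3.94 to 5.35 FPKM in WT and from 5.06 to 6.44 FPKM in the knockouts, with a log2 fold change of 0.27 (SE 0.10, edgeR's adjusted p = 0.179). Neither passed the threshold in any of the 18 alternative fits, and 5.65% of the exon bases of Col4a3 overlap a gene on the other strand. In all, 5 of the 6 type IV chains had an unadjusted p under 0.05, 3 with a negative and 2 with a positive sign, beside 19.8% of all tested genes. A ratio of Col4a4 to Col4a1, looked at after these values were known and given as a description, ran from 0.0568 to 0.0791 in WT and from 0.0858 to 0.147 in ERβKO ovaries.

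Pericytes and smooth muscle cells, like endothelium, are sources of type IV collagen. Their 10 markers had a mean log2 CPM of 7.03 to 7.31 in WT and 6.70 to 7.05 in ERβKO ovaries, with 8 negative and 2 positive log2 fold changes, 1 DEG (lower) and summed levels of 666 to 1100.4 FPKM and 669 to 783 FPKM. The 10 endothelial markers were at 5.17 to 5.52 and 5.18 to 5.38, with 8 negative and 2 positive log2 fold changes, 0 DEGs and sums of 118 to 144 FPKM and 110.0 to 134 FPKM. The 10 luteal markers, of cells with a dense capillary bed, were at 8.21 to 9.52 and 6.91 to 8.73. Their log2 fold changes were 9 negative and 1 positive, with a median of -0.86. Their sums were 2783 to 6537 FPKM and 2541 to 3784 FPKM. Hsd3b1, Cyp11a1 and Star, all lower in the knockout mean, are also on the theca list, so they do not single out luteal cells. Hsd3b1 and Cyp11a1 were the most abundant luteal markers, with WT means of 2533 and 1353 FPKM. The theca markers had a mean log2 CPM of 9.06 in WT and 9.07 in ERβKO ovaries, with 4 positive and 5 negative log2 fold changes. The 1 luteal DEG was Runx2, a transcription factor, at 7.52 to 54.0 FPKM in WT and 1.553 to 2.90 FPKM in the knockouts (log2 fold change -3.57, edgeR's adjusted p = 0.0185). The part of these cells in the levels of Col4a1 and Col4a2 was not tested.

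**Figure D4:**
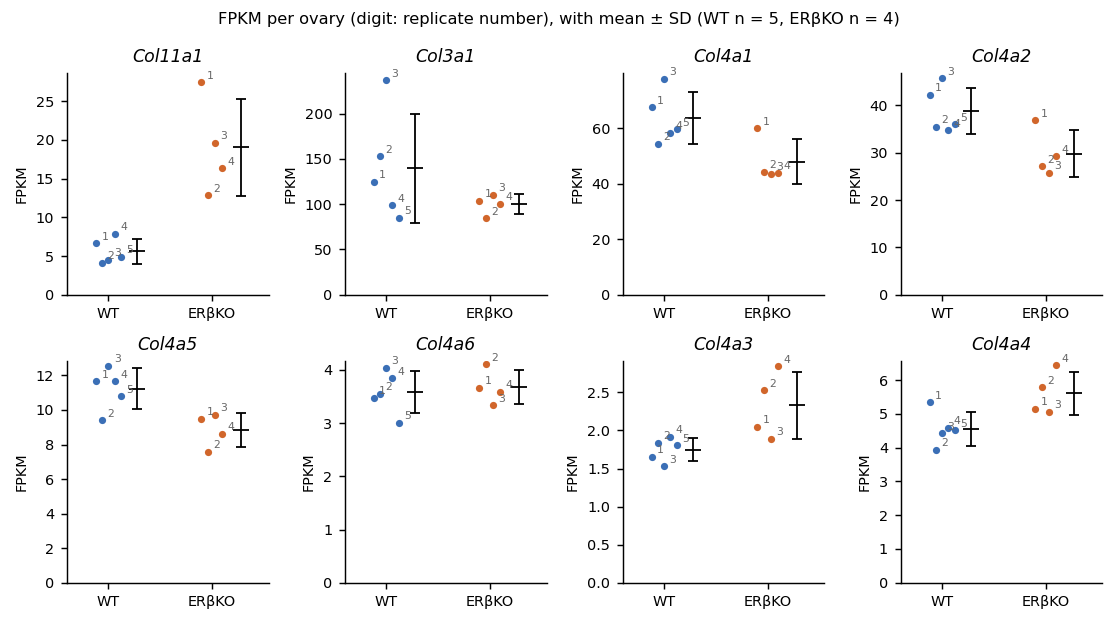
Each panel gives the FPKM of 1 chain in every ovary (y axis from 0, digits are replicate numbers) for WT (blue) and ERβKO (orange), with the mean ± SD beside the points. Col11a1 separates by genotype, Col4a1, Col4a2 and Col4a5 are lower in the knockout mean but overlap, Col4a3 and Col4a4 are higher in the knockout mean, and the highest WT value of Col3a1 is replicate 3 at 237 FPKM.

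None of the major fibrillar chains passed the test, and their values overlapped between the genotypes. Col3a1, the homotrimeric collagen of distensible tissues and the most abundant chain, was at 125, 153, 237, 98.8 and 85.0 FPKM in WT and at 104, 84.5, 110.4 and 101 FPKM in the knockouts. All knockout ovaries were below WT replicates 1, 2 and 3 and overlapped the other WT ovaries, and the means were 139.5 ± 60.1 and 99.7 ± 10.97 FPKM (SD, n = 5 and 4). Its log2 fold change was -0.50 (SE 0.26, edgeR's adjusted p = 0.309) and ran from -0.63 to -0.23 as single ovaries were left out, with -0.23 without WT replicate 3 and -0.47 without WT replicate 2.

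Type I collagen, the main protein of coarse fibres, is made of 2 chains from Col1a1 and 1 from Col1a2. Col1a2 was at 73.4, 126.4, 105, 74.5 and 58.1 FPKM in WT and at 74.2, 72.1, 87.4 and 89.8 FPKM in the knockouts. Col1a1 was at 23.1, 51.4, 38.5, 23.3 and 18.7 FPKM in WT and at 24.9, 24.2, 33.2 and 30.2 FPKM in the knockouts. WT replicates 2 and 3 were highest for both chains and WT replicate 5 was lowest, with all knockout ovaries in between. The log2 fold changes were -0.12 for Col1a2 (SE 0.20, edgeR's adjusted p = 0.773) and -0.16 for Col1a1 (SE 0.27, edgeR's adjusted p = 0.782). Without WT replicate 2 they turned to 0.034 and 0.084, so no direction can be given.

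The regulatory type V chains and the remaining fibrillar chains were lower in level. Col5a1 ranged from 6.94 to 11.5 FPKM in WT and 7.08 to 8.46 FPKM in the knockouts (log2 fold change -0.24, edgeR's adjusted p = 0.413). Col5a2 ranged from 10.1 to 21.0 and from 8.57 to 11.4 FPKM (log2 fold change -0.49, SE 0.20, edgeR's adjusted p = 0.213). These chains share the high values in WT replicates 2 and 3 with type I and type III. Col5a3 had a positive log2 fold change of 0.47 (edgeR's adjusted p = 0.359), with its highest value, 3.89 FPKM, in ERβKO replicate 1 and 1.30 to 2.87 FPKM in all other ovaries. The 10 stromal and fibroblast markers are of the cells that make most fibrillar collagen. Their mean log2 CPM was 5.86 to 6.31 in WT and 6.29 to 6.41 in ERβKO ovaries. Their sums were 500.4 to 697 FPKM and 693 to 742 FPKM, of which Dcn alone gave 317 to 406 FPKM and 408 to 487 FPKM. The log2 fold changes were 8 positive and 2 negative, with 1 DEG (higher), Pi16, at 0.499 to 1.86 FPKM over all 9 ovaries. The part of these cells in the collagen levels was not tested. Col27a1 (4.02 to 5.50 FPKM over all 9 ovaries) and Col24a1 (0.226 to 0.599 FPKM), the most recently described fibrillar chains, had adjusted p-values of 0.309 and 0.801 in edgeR.

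Type VI collagen links the stromal fibres to cells and basement membranes, and none of its 6 chains was called. Col6a1 was at 94.7, 113.9, 97.8, 75.9 and 78.5 FPKM in WT and at 86.9, 87.1, 95.0 and 100.3 FPKM in the knockouts. The means were 92.2 ± 15.5 and 92.3 ± 6.51 FPKM (SD, n = 5 and 4), at a log2 fold change of -0.028 (SE 0.11, edgeR's adjusted p = 0.917). Its partner Col6a2 was at 41.4, 66.1, 49.3, 36.3 and 31.3 FPKM in WT and at 48.6, 48.8, 61.1 and 52.0 FPKM in the knockouts. The WT values of Col6a2 enclosed the knockout values, and its log2 fold change was 0.21 (SE 0.19, edgeR's adjusted p = 0.564). The third classical chain, Col6a3, lay between 9.97 and 28.9 FPKM in WT and 16.4 and 20.3 FPKM in the knockouts (log2 fold change 0.10). Col6a4, a chain expressed in mice, was at 24.5, 28.4, 13.7, 19.5 and 16.9 FPKM in WT and at 21.0, 15.2, 19.4 and 21.0 FPKM in the knockouts, and 3.39% of its exon bases overlap genes on the other strand. Col6a5 and Col6a6 stayed between 1.46 and 4.16 FPKM, and the 6 adjusted p-values of the class in edgeR ran from 0.529 to 0.917.

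The multiplexins Col15a1 and Col18a1, whose proteins hold basement membranes to the underlying stroma and carry heparan or chondroitin sulfate, were moderately expressed. Col15a1 was at 16.6, 22.1, 20.6, 15.2 and 12.1 FPKM in WT and at 23.6, 13.0, 13.2 and 13.8 FPKM in the knockouts. ERβKO replicate 1 was the highest ovary of all and the other 3 were near the lowest WT value, and the log2 fold change was -0.16 (SE 0.21, edgeR's adjusted p = 0.717). Col18a1, the source of endostatin, was at 13.2, 11.2, 15.5, 11.3 and 11.2 FPKM in WT and at 12.8, 11.2, 8.37 and 11.4 FPKM in the knockouts, which overlap (log2 fold change -0.19, edgeR's adjusted p = 0.449). Col7a1, the anchoring fibril collagen, was below 1 FPKM in 8 of the 9 ovaries, at 0.408, 1.01, 0.437, 0.325 and 0.488 FPKM in WT and at 0.584, 0.364, 0.367 and 0.213 FPKM in the knockouts. Its log2 fold change was -0.65 (SE 0.25, edgeR's adjusted p = 0.187) and was -0.42 without WT replicate 2.

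Among the FACIT collagens, which sit on the surface of fibrils, none was called. Col16a1 was at 9.27, 13.2, 13.2, 7.11 and 5.43 FPKM in WT and at 8.80, 7.72, 9.78 and 8.75 FPKM in the knockouts, the WT values lying on both sides of the knockout values. Col12a1, found on type I fibrils, was at 4.95, 4.77, 5.50, 4.84 and 3.69 FPKM in WT and at 5.33, 5.28, 5.98 and 6.71 FPKM in the knockouts. Only WT replicate 3 exceeded the lower knockout ovaries for Col12a1, and the log2 fold change was 0.26 (SE 0.11, edgeR's adjusted p = 0.238). Col9a2, a chain of cartilage type IX collagen, was at 3.11, 2.48, 3.04, 5.68 and 2.52 FPKM in WT and at 4.48, 2.80, 3.02 and 4.75 FPKM in the knockouts, while its partner Col9a1 had 0 fragments in every ovary and Col9a3 was at 0.247 to 0.496 FPKM, with 6.07% of its exon bases under a gene on the other strand. Col14a1 and Col20a1 lay between 1.50 and 4.37 FPKM and Col22a1 at or below 0.289 FPKM. Of the 7 tested chains of this class 3 had positive and 4 negative log2 fold changes, with a median of -0.090, and edgeR's adjusted p-values ran from 0.238 to 0.881.

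Col8a2 and Col8a1, short chains that form hexagonal lattices in endothelial and corneal matrices, had fold changes of opposite sign. Col8a2 was at 2.42, 3.36, 1.94, 2.03 and 1.88 FPKM in WT and at 3.27, 3.29, 3.29 and 3.36 FPKM in the knockouts. The 4 knockout ovaries were nearly equal and above 4 of the 5 WT ovaries, with WT replicate 2 at the knockout level. Its log2 fold change was 0.48 (SE 0.16, edgeR's adjusted p = 0.146). Without WT replicate 2 it was 0.64 at an adjusted p of 0.0125 in edgeR, which would make Col8a2 a DEG. In that fit 912 of all tested genes were DEGs, against 287 in the main fit. Col8a1 was at 1.01, 1.25, 0.736, 1.25 and 1.26 FPKM in WT and at 0.543, 1.38, 0.884 and 0.717 FPKM in the knockouts (log2 fold change -0.35, edgeR's adjusted p = 0.471). Col10a1, the collagen of hypertrophic cartilage, was listed at 0.122 and 0.0737 FPKM in WT replicates 1 and 2 and at 0 in all others.

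The transmembrane collagens were low. Col23a1 was at 2.84, 2.39, 2.00, 3.68 and 2.79 FPKM in WT and at 4.42, 4.47, 2.43 and 2.41 FPKM in the knockouts, so the knockout ovaries fell into a high and a low pair. Col25a1 was at 0.332, 1.26, 1.35, 0.4659 and 0.245 FPKM in WT and at 0.590, 1.13, 1.95 and 1.46 FPKM in the knockouts, with the second largest positive log2 fold change of the family, 0.79, but also the largest SE, 0.53 (edgeR's adjusted p = 0.441). Col13a1 was at 0.592, 0.565, 0.432, 0.536 and 0.527 FPKM in WT and at 0.545, 0.372, 0.339 and 0.750 FPKM in the knockouts, and Col17a1, the hemidesmosome collagen, did not exceed 0.143 FPKM. Col26a1, first described in testis and ovary, was at 2.64, 4.07, 2.20, 2.62 and 1.34 FPKM in WT and at 3.19, 3.33, 2.90 and 3.86 FPKM in the knockouts (log2 fold change 0.39, edgeR's adjusted p = 0.337). Col28a1 was at 0.308, 0.247, 0.168, 0.286 and 0.159 FPKM in WT and at 0.474, 0.351, 0.336 and 0.252 FPKM in the knockouts (log2 fold change 0.37, edgeR's adjusted p = 0.435).

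Because collagen molecules need their chains in fixed proportions, the FPKM ratios of 8 pairs of chains were examined. They were partner or neighbouring chains, except Col1a1 with Col3a1, which belong to type I and type III and share no molecule. The test was an exact permutation of the genotypes over the 9 ovaries (two-sided), where the smallest possible p is 0.0159. No pair passed after adjustment over the 8, and a single pair could not have passed even at the smallest possible p. The adjusted values therefore cannot show that a ratio was unchanged. The ratio of Col4a1 to Col4a2 was nearly constant, at 1.53 to 1.70 in WT and 1.50 to 1.69 in ERβKO ovaries (exact permutation p = 0.667), so the 2 chains moved together ovary by ovary. That of Col1a1 to Col1a2 was 0.312 to 0.407 in WT and 0.336 to 0.380 in ERβKO ovaries (exact permutation p = 0.873). Type I collagen holds more Col1a1 than Col1a2 chains, so these FPKM ratios are not the chain proportions of the protein. Col4a5 over Col4a6 averaged 3.15 ± 0.356 (SD, n = 5) in WT and 2.44 ± 0.447 (SD, n = 4) in ERβKO ovaries at an exact permutation p of 0.0317, adjusted to 0.190, and Col5a1 over Col5a2 averaged 0.682 ± 0.0835 and 0.807 ± 0.0647 at an exact permutation p of 0.0476, also adjusted to 0.190. In both, the genotypes overlapped. The other 4 pairs, Col1a1 with Col3a1, Col4a3 with Col4a4, Col6a1 with Col6a2 and Col6a3 with Col6a1, had adjusted p-values of 0.254 to 0.635.

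**Figure D5:**
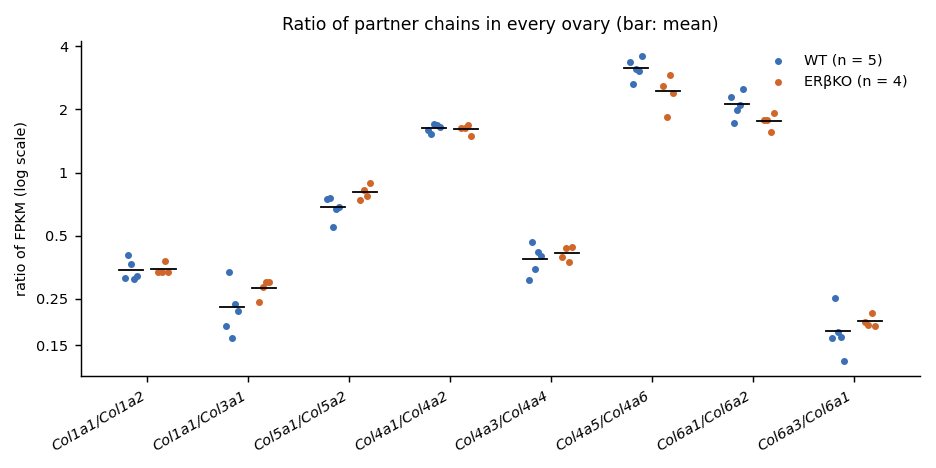
Points give the FPKM ratio of each tested pair of chains in every ovary (log scale) for WT (blue) and ERβKO (orange), with a bar at each mean. Col4a1/Col4a2 stays within 1.50 to 1.70 in all 9 ovaries, and Col4a5/Col4a6 has a mean of 3.15 in WT and 2.44 in ERβKO ovaries with overlapping points.

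The machinery that modifies, processes, binds and senses collagen was read from 4 lists of 57 genes, of which 55 were tested. In edgeR 1 of them was a DEG, lower in ERβKO ovaries, beside 1.72% of all tested genes. In DESeq2 9 were, 3 higher and 6 lower, beside 4.78% of all genes (2.22% higher and 2.56% lower), with a median log2 fold change over the lists of -0.025. The edgeR call was Sparc, a collagen-binding matricellular protein with a known role in type IV and fibrillar collagen deposition, at 421, 375, 519.8, 366 and 434 FPKM in WT and at 297, 267, 329 and 273 FPKM in the knockouts. Every knockout ovary was below every WT ovary, as for 3.31% of all tested genes, and the log2 fold change was -0.56 (SE 0.12, edgeR's adjusted p = 0.0428). The call was lost in 7 of the 18 alternative fits, where edgeR's adjusted p reached 0.138 without ERβKO replicate 2 and was 0.130 with the libraries numbered below 200.

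For the other genes called by DESeq2 alone, edgeR's adjusted p lay between 0.0826 and 0.133. Of the 55 tested genes of the lists, 3 had every ERβKO ovary above every WT ovary, among them P4ha1 and Dcn. Another 2, Sparc and Itga2, had every ERβKO ovary below every WT ovary. Over all tested genes these shares were 4.29% above and 3.31% below. Among the enzymes that modify nascent chains, P4ha1, a prolyl 4-hydroxylase subunit, averaged 15.4 ± 2.36 FPKM among WT and 21.4 ± 1.73 FPKM in the knockouts (SD, n = 5 and 4) with no overlap, and Plod2, the telopeptide lysyl hydroxylase, 76.1 ± 12.03 and 119.1 ± 25.7 FPKM. Colgalt2, a collagen galactosyltransferase, averaged 4.21 ± 1.40 and 2.64 ± 0.252 FPKM, while the chaperone Ppib, named for its level and not called, was at 217 ± 28.4 and 227 ± 6.37 FPKM. Pcolce, which enhances the cleavage of procollagen, averaged 98.6 ± 20.4 and 69.2 ± 9.34 FPKM, and the lysyl oxidase Loxl2 20.5 ± 4.46 and 15.4 ± 1.41 FPKM. Of the receptors, Adgrg1, a receptor for type III collagen, averaged 27.2 ± 4.66 and 39.8 ± 7.66 FPKM, the collagen-binding integrin chains Itga1 4.21 ± 0.486 and 3.24 ± 0.512 FPKM and Itga2 2.83 ± 0.668 and 1.81 ± 0.221 FPKM, and their partner Itgb1, not a DEG in either tool, 132 ± 8.02 and 114.7 ± 5.40 FPKM. The proteoglycan decorin (Dcn), which coats type I fibrils, was higher in every knockout ovary, at 357 ± 40.2 and 456 ± 33.7 FPKM with a log2 fold change of 0.32 under the minimum size (edgeR's adjusted p = 0.0672), and biglycan (Bgn), not called, was at 147 ± 24.8 and 138 ± 7.79 FPKM. The cross-linking enzyme Tgm2, also not called, was at 44.5 ± 9.10 and 56.0 ± 5.61 FPKM, and 6.42% of the exon bases of Plod2, 5.57% of those of Loxl2, 21.8% of those of Tgm2 and 24.96% of those of Ppib overlap genes on the other strand.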

How the data were processed

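The authors prepared stranded libraries from polyadenylated ovary RNA, sequenced read pairs of 150 bp, trimmed them with Trim Galore and used STAR to align them to mm10 (GRCm38). The authors deposited counts of fragments per gene from featureCounts with no normalization, and use of the strand in counting is not given in the sources used here. The authors computed the deposited FPKM, TPM and coverage values per gene with StringTie. TPM and coverage were not used for a result.

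Counts were filtered with filterByExpr, normalized by TMM and compared between genotypes with edgeR 4.0.16 (quasi-likelihood test, Benjamini-Hochberg adjustment over 16722 genes, common biological coefficient of variation 0.179) in R 4.3.3. DESeq2 1.42.0, limma 3.58.1 on log2(FPKM + 1) and log2(FPKM + 0.1), other scalings and filters, a replicate block and the omission of ovaries were alternatives. The script was tested on simulated data. Exon overlap came from GENCODE on GRCm38, promoter windows (250 bases before to 50 after a start) from RefSeq, GRCm38.p6. Standard errors of edgeR's log2 fold changes were derived from the test, as the absolute log2 fold change over the square root of its F statistic. Marker lists are given as mean log2 CPM with a prior count of 2. SciPy 1.17.1 ran the permutation tests. Nothing states separate litters, so p-values measure the spread between these ovaries. The chains, the class, pathway and marker lists and the tests were chosen with earlier results of these data known. Values in every ovary are given for chains called by edgeR or DESeq2 and the 3 most abundant of each class. Of the pathway lists, genes called by either tool and the 2 most abundant of each list are named.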

Additional observations from a re-analysis of the deposited data

Results flagged for a closer look

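Of 64 groups of ovaries examined for a single ovary far from the rest, 5 were marked, and chance alone marks about 1 in 20 groups. The groups were the named chains and the tested chain ratios, each within a genotype. ERβKO replicate 1 stood above the other 3 knockout ovaries for Col15a1, at 23.6 FPKM against 13.0 to 13.8 FPKM, and for Col4a1, at 60.0 FPKM against 43.6 to 44.4 FPKM. The same ovary had the highest adipocyte markers, whose part in these values was not tested. WT replicate 2 stood apart for Col7a1, at 1.01 FPKM against 0.325 to 0.488 FPKM, and WT replicate 4 for Col9a2, at 5.68 FPKM against 2.48 to 3.11 FPKM. The ratio of Col1a1 to Col1a2 was 0.380 in ERβKO replicate 3 and 0.336 to 0.337 in the other knockout ovaries.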

How the results depend on the processing

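Col11a1 was past the threshold in all 18 alternative fits. The replicate numbers did not pair the ovaries (correlations of same-numbered deviations 0.0948, 0.130, -0.0427 and -0.0105), and with a replicate block 155 genes were DEGs (66 higher, 89 lower), 1 of them a collagen chain. The 287 DEGs became 800 with DESeq2 (372 higher, 428 lower), 51 with the libraries numbered below 200 (30 and 21) and 191 with limma and a pseudocount of 1, which called 75 lower and with a pseudocount of 0.1 86. Leaving out single ovaries gave 60 DEGs (without ERβKO replicate 2) to 912 (without WT replicate 2), with 42 to 488 higher and 18 to 424 lower. Among collagen chains DESeq2 called 3, 2 of them lower, and leaving out ovaries gave 1 to 4, of which 1 to 2 were higher and 0 to 2 lower. The count was 3 without ERβKO replicate 1 (Col11a1, Col4a1 and Col4a2) and 4 without WT replicate 2 (Col11a1, Col8a2, Col4a1 and Col4a5). Among pathway genes DESeq2 called 9 (3 higher, 6 lower), the libraries numbered below 200 gave 0, and leaving out ovaries 0 to 7, of which 0 to 3 were higher and 0 to 4 lower.

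The uncalled difference in mean log2 ratio of Col1a1 to Col1a2 turned from 0.018 to -0.0011 with raw counts and to -0.055 with the libraries below 200, and ran from -0.026 to 0.081 as ovaries were left out. That of Col4a1 to Col4a2 turned from -0.017 to 0.0027 with those libraries and ran from -0.041 to 0.017. Without single ovaries the signs of Col13a1 (-0.32 to 0.00025), Col1a1 (-0.29 to 0.084), Col1a2 (-0.24 to 0.034), Col6a1 (-0.091 to 0.053), Col9a2 (-0.033 to 0.36), Ppib (-0.0025 to 0.11), Col4a6 (-0.042 to 0.040), Col6a3 (-0.033 to 0.38), Col6a5 (-0.26 to 0.11), Col9a3 (-0.23 to 0.071), Col11a2 (-0.20 to 0.18) and Col14a1 (-0.067 to 0.33) also turned, none of them called. Limma gave 0.016 for Col6a1 with both pseudocounts, and the libraries below 200 gave -0.042 for Ppib. The cause of these changes was not tested. The 4 chains near 0 counts cannot be compared at this depth.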
